A study of Mus musculus with 9 samples.

Results

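The regions described here were single promoters bound in MyoD1 CUT&RUN that held no CAGCTG, the E-box with central bases G then C that MyoD prefers. Overlapping or adjoining peaks from the 6 lists were joined into regions, and those called in at least 2 of the 6 were kept. A region was a member when its centre lay within 1 kb of a protein-coding transcript start, when no divergent pair of protein-coding starts of different genes (at most 1 kb apart) lay there, and when the merged interval held no CAGCTG. The rule gave 2858 members among 18774 regions (15.2%). The other regions were 4243 single promoters with CAGCTG, 700 bidirectional promoters and 10973 regions away from protein-coding starts. Members touched the promoters of 2899 of 21840 protein-coding gene symbols (13.3%), and 28 genes had more than 1 member, with 3 at Per1.

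MyoD is a basic helix-loop-helix transcription factor that drives muscle differentiation. It pairs with E proteins and binds E-boxes, the sequence CANNTG, with a preference for particular central bases. Promoters rich in CpG commonly carry GC boxes, read by SP and KLF proteins, CCAAT boxes, read by NF-Y, and ETS sites. A tethered nuclease also cuts accessible DNA near open starts, and its part in the signal was not tested here.

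All libraries came from C2C12, a mouse skeletal muscle myoblast line, and from 1 clonal derivative of it. Cells carried MyoD1 tagged at its own locus with 3xFlag and HaloTag, together with a second, doxycycline-inducible 3xFlag-Halo-MyoD1 transgene, so both groups express tagged MyoD1 and the no dox group is not a MyoD1-free control. Differentiation was started at the same time as 6 h with (+dox) or without (no dox) 1 µg/mL doxycycline, with 3 biological replicates in each group, and an anti-Flag antibody was used. The 3 wild-type libraries without the tag were not analysed here.

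The lists held 9389, 13877 and 13403 peaks in no dox libraries 1 to 3, and 12536, 13260 and 53661 in +dox libraries 1 to 3. The steps of the deposited CPM values put the depth between 2868000 and 8030000 alignments, the deepest being +dox 3. The third library of each group stood apart. The +dox 3 list was by far the longest, and no dox 3 called the fewest members. Shares and heights compared between the groups are also described within replicates 1 and 2.

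Stretches of 120 bases upstream of the annotated start are shown for 9 members because they show which promoter motifs and other E-boxes stand upstream of these starts. The same motifs are also found at single promoters with CAGCTG, as the shares below show. They were read from the GRCm38 genome, in the direction of the gene, and lie outside annotated exons. Capitals mark, on either strand, the CCAAT box (CCAAT), the GC box (GGGCGG), the ETS core (CCGGAAG) and E-boxes (CANNTG). Chrnb1 (chr11:69795944-69796063, minus strand), Fam49b (chr15:63997970-63998089, minus) and Uba3 (chr6:97205648-97205767, minus) were called in all 6 lists. Xpot (chr10:121626333-121626452, minus), Gpsm2 (chr3:108722310-108722429, minus) and Lgmn (chr12:102439814-102439933, minus) were called in the +dox lists alone. Zfp574 (chr7:25077085-25077204, plus), Ndufs8 (chr19:3912775-3912894, minus) and Rps21 (chr2:180257257-180257376, plus) come from gene families described further on.
Chrnb1: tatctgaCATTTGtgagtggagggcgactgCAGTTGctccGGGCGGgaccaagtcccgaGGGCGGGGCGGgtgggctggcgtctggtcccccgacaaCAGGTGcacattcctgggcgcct
Fam49b: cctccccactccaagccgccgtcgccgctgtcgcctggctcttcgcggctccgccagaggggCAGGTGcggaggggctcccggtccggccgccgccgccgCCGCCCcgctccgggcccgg
Uba3: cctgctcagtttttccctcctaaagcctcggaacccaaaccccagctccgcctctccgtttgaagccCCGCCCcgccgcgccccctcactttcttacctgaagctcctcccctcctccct
Xpot: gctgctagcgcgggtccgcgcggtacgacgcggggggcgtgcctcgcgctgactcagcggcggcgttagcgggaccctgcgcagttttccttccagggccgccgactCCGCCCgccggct
Gpsm2: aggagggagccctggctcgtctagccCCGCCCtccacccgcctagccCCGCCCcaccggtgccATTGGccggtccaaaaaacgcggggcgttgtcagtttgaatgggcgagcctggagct
Lgmn: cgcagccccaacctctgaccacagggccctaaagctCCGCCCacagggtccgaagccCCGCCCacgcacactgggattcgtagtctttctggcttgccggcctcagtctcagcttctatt
Zfp574: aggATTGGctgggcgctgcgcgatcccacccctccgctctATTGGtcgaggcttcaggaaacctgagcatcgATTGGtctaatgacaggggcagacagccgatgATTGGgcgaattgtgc
Ndufs8: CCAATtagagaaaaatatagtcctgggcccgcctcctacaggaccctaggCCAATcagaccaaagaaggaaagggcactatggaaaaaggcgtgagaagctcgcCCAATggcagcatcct
Rps21: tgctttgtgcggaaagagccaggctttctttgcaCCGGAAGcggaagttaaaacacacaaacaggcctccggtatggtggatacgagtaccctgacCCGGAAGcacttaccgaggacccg
Chrnb1 held 3 E-boxes of other kinds and 3 GC boxes, Zfp574 held 4 CCAAT boxes, Ndufs8 held 3 CCAAT boxes, and Rps21 held 2 ETS cores. The last 3 do not stand for their families. The stretches read for Zfp687, Zfp78, Cox7a2l and Atp5g2 held 0 CCAAT boxes, and that for Rps19 held 0 ETS cores. Xpot and Lgmn carried GC boxes and no E-box in these stretches.

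Members sat close to starts and were CpG-rich. The median distance from region centre to start was 120 bp, and 94.5% of members (2700) lay within 500 bp. In windows of 250 bp on each side of the centre, 86.7% of members (Wilson 95% interval 85.4 to 87.9) had an observed to expected CpG ratio of at least 0.6 with GC of at least 55%. The same share was 69.8% at single promoters with CAGCTG and 43.2% at all 19896 annotated single promoters. GC boxes (GGGCGG on either strand) were in 84.7% of member windows, 74.9% of those with CAGCTG, 80.1% of bidirectional promoters and 51.9% of all annotated single promoters. ETS cores (CCGGAAG on either strand) were in 23.2%, 14.9%, 30.7% and 12.9% of the same classes. CCAAT boxes were in 41.6%, 39.1%, 47.9% and 48.1%. TATAAA on either strand was in 5.60%, 5.70%, 5.14% and 17.1%, so the 3 bound promoter classes had like shares of it. These shares carry no test, since absence of CAGCTG from a whole interval itself selects base composition and width.

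Most members held E-boxes of other kinds somewhere in the merged interval, a share given for members only. Over the whole merged interval 148 members (5.18%) held no CANNTG at all, and 1819 (63.6%) held CACCTG or CAGGTG, the E-box with GG or CC central bases. Within the fixed windows that E-box was in 34.2% of members, 36.6% of single promoters with CAGCTG and 34.2% of all single promoters. Any CANNTG was in 70.5% of member windows, the lowest of these classes. It was in 88.0% of single promoters with CAGCTG, 80.1% of bidirectional promoters and 84.8% of all single promoters. Among these classes the rule keeps CAGCTG out of members alone. Near the maximum, CAGGTG or CACCTG lay within 100 bp in 16.7%, 17.0% and 18.5% of member peaks in no dox libraries 1 to 3, and in 15.3%, 15.9% and 16.3% in +dox libraries 1 to 3. Single promoters with CAGCTG averaged 15.7% against 16.6% for members, a difference of 0.97 percentage points that was positive in 5 of the 6 lists (exact sign-flip permutation test, two-sided, p = 0.09375, adjusted p = 0.09375 over 6 comparisons). The difference reversed to -1.29 points when any CANNTG other than CAGCTG was counted.

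The maximum of member peaks lay just upstream of the start. Its median position was between -74 and -31 bp over the 6 libraries, and 59.2% to 65.6% of maxima were upstream. Maxima within 250 bp of a start made up 81.1%, 80.5% and 65.0% of member peaks in no dox libraries 1 to 3 and 85.8%, 84.5% and 79.6% in +dox libraries 1 to 3. The lowest share was in no dox 3. Members exceeded single promoters with CAGCTG by 7.61 points on average (SD 1.93, n = 6 libraries), higher in 6 of 6 (sign-flip permutation, exact, p = 0.03125, adjusted p = 0.0375 over 6 comparisons and 0.06875 over all 11). It was 7.70 within replicates 1 and 2. The call was lost for merged regions of 500 to 1000 bp (3.73 points), and the difference reversed to -1.01 where CAGCTG was looked for within 250 bp of the centre.

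**Figure D1:**
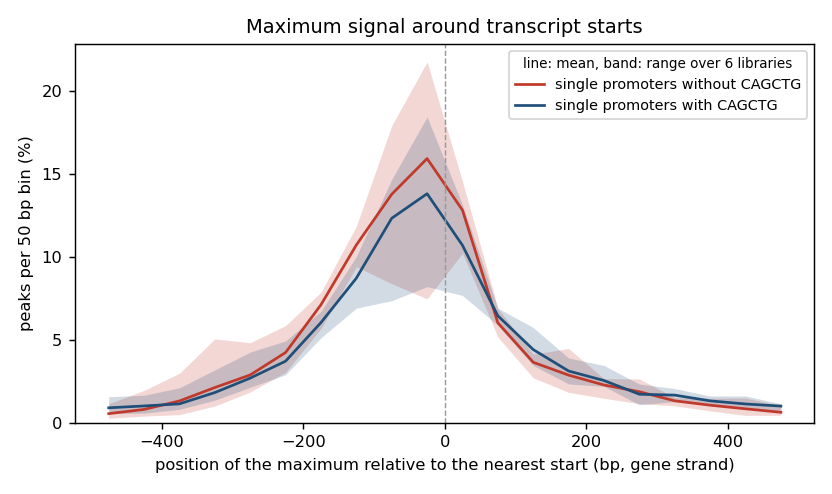
Position of the maximum relative to the nearest protein-coding start (x axis, bp in the direction of the gene) as percent of peaks per 50 bp bin (y axis), for single promoters without and with CAGCTG. Lines are means and bands the range over 6 libraries, and both classes peak just upstream of the start.

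CCAAT boxes, GC boxes and ETS cores were denser at the maximum of member peaks than away from it. CCAAT boxes numbered 12.7 matches per 100 peaks and 50 bp bin within 100 bp of the maximum and 5.33 beyond 400 bp, a ratio of 2.39 (SD 0.19, n = 6). The ratio was 3.48 for GC boxes (SD 0.61) and 3.96 for ETS cores (SD 1.40), each above 1 in 6 of 6 libraries (exact sign-flip permutation p = 0.03125, adjusted p = 0.043 over 11). For CAGGTG or CACCTG it was 1.13 (SD 0.14), above 1 in 5 of 6 (exact p = 0.0625, adjusted p = 0.0764). Single promoters with CAGCTG had ratios of 1.96, 3.02 and 3.60 for CCAAT boxes, GC boxes and ETS cores, and 3.08 for CAGCTG itself. The differences between the classes were not tested, and maxima and these motifs both lie near starts.

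**Figure D2:**
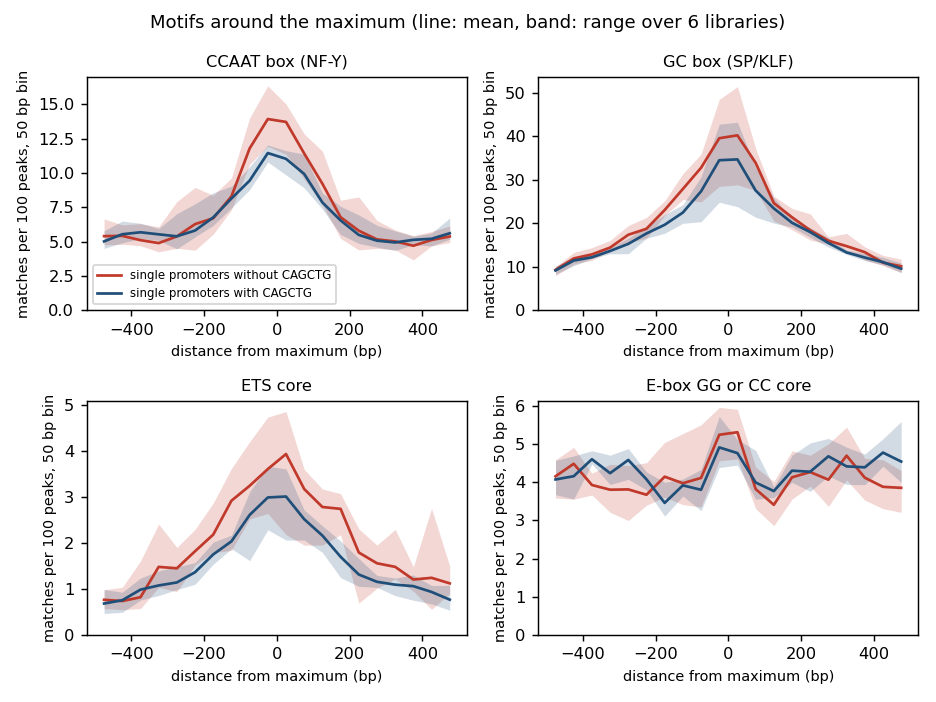
Matches per 100 peaks in 50 bp bins (y axis) by distance from the maximum in bp (x axis) for 4 motifs, in single promoters without and with CAGCTG. Lines are means and bands the range over 6 libraries. The CCAAT box, GC box and ETS core rise towards the maximum in both classes, and the E-box with GG or CC core is nearly flat.

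Members with a CCAAT box had higher median heights in every library, short of the adjusted threshold. Height is the percentile of a region's maximum signal among all peaks of the same list, with 100 the highest. The 1190 members with CCAAT within 250 bp of the centre had median heights of 45.8, 51.0 and 47.9 in no dox libraries 1 to 3 and 55.8, 50.8 and 73.2 in +dox libraries 1 to 3. The 1668 without it had 36.6, 37.5 and 38.6, then 45.3, 37.4 and 64.6. The gap averaged 10.8 (SD 2.20) and had the same sign in 6 of 6 libraries (exact sign-flip permutation p = 0.03125, the smallest that 6 libraries allow, adjusted p = 0.219 over 42 tests). Those members were also called more often, by 4.94 points (6 of 6 libraries, exact permutation p = 0.03125, adjusted p = 0.219), though the same list calls chose the members. By mean height, added after the medians were seen because many heights are tied, the CCAAT gap was 7.30, that of the GC box 4.64, of CpG-rich windows 2.60 and of the CRE (TGACGTCA) -3.22, each of 1 sign in 6 of 6 libraries with an adjusted p = 0.219 from exact permutation. By median height the GC box gap was 6.14 with 5 of 6 libraries positive, and the CpG-rich gap 5.08 with 4 of 6. Medians were tied in +dox 3 for the GC box, and in no dox 1 and +dox 3 for CpG-rich windows. The CRE gap was -4.02, with 0 of 6 positive and ties in no dox 1 and +dox 2. Members with and without CAGGTG or CACCTG differed by 0 in median height, since their medians were tied in each of the 6 libraries. By mean height that gap was -0.31, positive in 1 of 6 libraries (exact sign-flip permutation p = 0.09375, adjusted p = 0.394). None of these gaps passed the adjusted threshold.

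Members were lower than other promoter peaks in the same list. Their median height was 43.0, 44.9 and 47.9 in no dox libraries 1 to 3 and 49.3, 42.4 and 68.0 in +dox libraries 1 to 3. Single promoters with CAGCTG had 53.3, 59.7 and 61.2, then 60.8, 57.6 and 78.5. The difference averaged -12.6 (SD 2.14), lower in each of the 6 lists, and it was -9.06 (SD 2.40) against bidirectional promoters, also in all 6 (sign-flip permutation test, exact and two-sided, p = 0.03125 for both, adjusted p = 0.0375 over 6 comparisons and 0.06875 over all 11). Members were narrower, as a rule on a whole interval favours, with a median width of 1150 bp against 1500 bp and 1400 bp. For merged widths of 500 to 1000 bp the differences were -4.37 (exact permutation p = 0.25) and -1.80 (exact permutation p = 0.5), so neither call held in that width range. The gap to CAGCTG promoters did not move detectably with dox, at 0.38 points (exact permutation p = 1, smallest possible 0.1) and -0.83 within replicates 1 and 2.

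**Figure D3:**
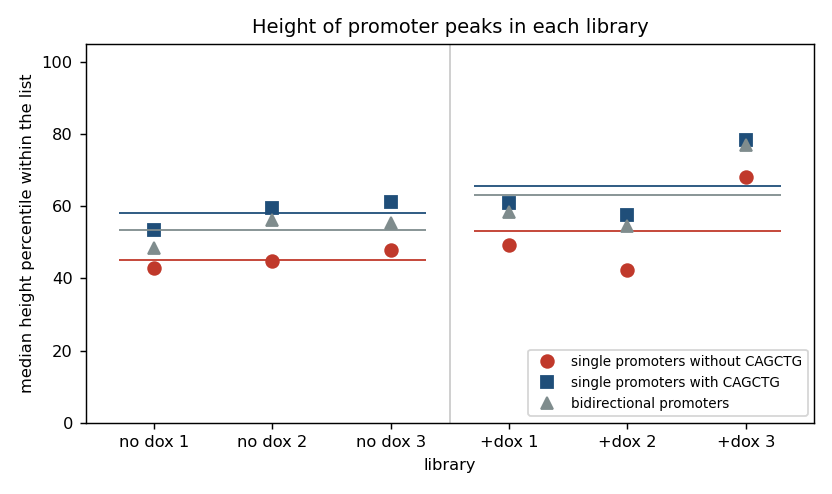
Median height percentile within each list (y axis) for the 3 promoter classes in the 6 libraries (x axis), with group means as horizontal lines. Single promoters without CAGCTG lie lowest in every library, and +dox 3 lies highest in all classes.

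Members were called less often than single promoters with CAGCTG. They had a peak in 44.9%, 64.3% and 30.5% of cases in no dox libraries 1 to 3 and in 78.2%, 69.8% and 92.2% in +dox libraries 1 to 3. Single promoters with CAGCTG had 62.8%, 78.3% and 52.6%, then 81.5%, 79.5% and 96.6%. Over all 18774 regions the shares were 45.5%, 63.1% and 57.9%, then 59.2%, 64.0% and 96.7%, so members were near the general share in no dox 1 and 2, below it in no dox 3 and +dox 3, and above it in +dox 1 and 2. The difference averaged -11.9 points and ranged from -22.1 to -3.27, negative in 6 of 6 libraries (exact sign-flip permutation p = 0.03125, adjusted p = 0.0375 over 6 comparisons and 0.06875 over all 11). It was -3.51 points for merged widths of 500 to 1000 bp (exact permutation p = 0.15625) and -15.1 with every list shortened to the shortest (exact permutation p = 0.0625). The same list calls chose the regions, and the rule read CAGCTG over intervals that merge the peaks of all lists. Calls and class are thus not independent, and the test cannot separate them.

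Windows of 1 width free the comparison from region width. Of 11528 annotated single promoters without CAGCTG within 500 bp of the start, 15.9%, 22.6% and 12.1% overlapped a peak in no dox libraries 1 to 3 and 25.9%, 23.6% and 37.9% in +dox libraries 1 to 3. Of 8368 with CAGCTG the shares were 22.9%, 29.2% and 18.5%, then 30.4%, 29.0% and 43.0%. The difference was -5.84 points (SD 0.98), negative in 6 of 6 libraries (exact sign-flip permutation p = 0.03125, adjusted p = 0.0375 over 6 comparisons and 0.06875 over all 11). It was -10.3 points among CpG-rich windows and -5.29 among the others (exact permutation p = 0.03125 each). CpG-rich windows without CAGCTG were called in 35.3% on average in no dox and 57.8% in +dox libraries, and CpG-poor windows with CAGCTG in 10.4% and 17.0%. The difference between these classes was not tested.

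A larger share of members had a peak in each +dox library than in any no dox library. Over all regions the share was also higher with dox in each replicate number. It went from 45.5% to 59.2%, from 63.1% to 64.0% and from 57.9% to 96.7% in replicates 1 to 3. The same list calls chose the members, and 627 members (21.9%) were in no no dox list and so entered through the +dox lists alone, against 10.4% of single promoters with CAGCTG. The mean share was 46.6% (SD 17.0, n = 3) in no dox and 80.1% (SD 11.3, n = 3) in +dox libraries, a difference of 33.5 points without overlap of the groups (exact two-sided permutation p = 0.1, the smallest that 3 against 3 allows, adjusted p = 0.25 over 5 comparisons). With the replicate numbers as pairs p was 0.25, the smallest that 3 pairs allow in an exact permutation test. The difference was 19.3 points within replicates 1 and 2, 61.7 within replicate 3, and 9.99 with every list shortened to the shortest (exact permutation p = 0.5). The difference was 12.1 points larger in members than in single promoters with CAGCTG (exact permutation p = 0.1), 9.39 points larger within replicates 1 and 2, and 8.07 points larger with lists of equal length (exact permutation p = 0.4). The class with CAGCTG was nearer to 100% in +dox libraries. Members made up 13.8%, 13.4% and 6.54% of peaks in no dox libraries 1 to 3 and 18.3%, 15.2% and 5.04% in +dox libraries 1 to 3, with overlap of the groups (exact permutation p = 0.7). Within replicates 1 and 2 the +dox shares were the higher ones, and in replicate 3 the no dox share was. Member height differed by 7.98 points (exact permutation p = 0.5). That value was 1.93 within replicates 1 and 2, 20.1 within replicate 3, and 1.23 with lists of equal length (exact permutation p = 1), and it ran from 4.60 to 13.4 with 1 library left out.

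**Figure D4:**
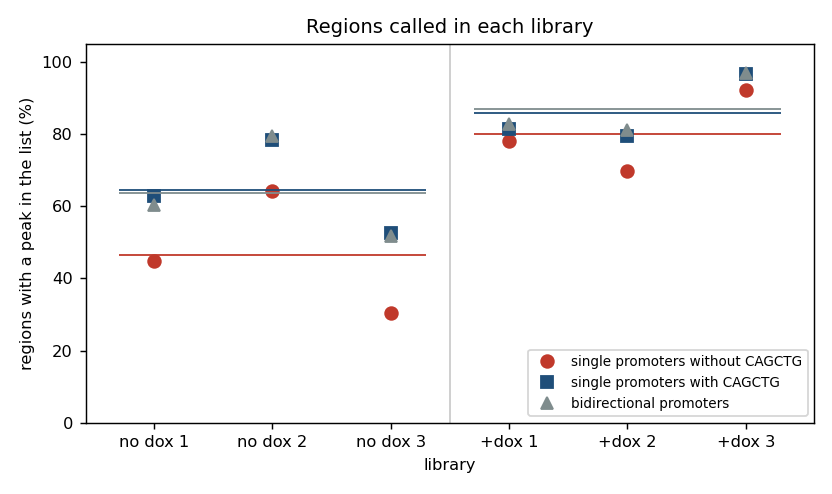
Percent of the regions of each promoter class with a peak in each list (y axis) for the 6 libraries (x axis), with group means as horizontal lines. Single promoters without CAGCTG run from 30.5% in no dox 3 to 92.2% in +dox 3 and lie below the other classes in every library.

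By list counts, 1819 members (63.6%) were in more +dox than no dox lists. That share was 39.6% of all regions, 45.6% of single promoters with CAGCTG and 48.7% of bidirectional promoters. It includes the 627 members that entered through the +dox lists alone. More no dox lists held 101 members (3.53%), against 8.23% of all regions. The other promoter classes were near members there, at 3.75% with CAGCTG and 4.14% for bidirectional promoters. A peak in 3 of 3 +dox and 0 of 3 no dox lists was found at 190 members (6.65%, Wilson 95% interval 5.79 to 7.62), against 3.38% of all regions and 3.51% of single promoters with CAGCTG. That interval takes regions as independent and covers no spread between libraries, so it is no test of dox. With every list shortened to the shortest the count was 12 among 1808 members. The share over all regions was not computed at that list length, so whether the excess remains there is not known. The opposite pattern was found at 3 members, Hhex, Grhl2 and Cep170b, where 0.0266% of all regions had it. All 6 lists called 491 members (17.2%), against 25.8% of all regions. Members in 2 lists had a median mean height of 31.9 (779 members), and 1849 regions of the same kind in 1 list alone, outside the rule, had 29.7, with 66.4% of them from +dox 3.

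The 8 members called in all 6 lists with the highest mean height encode proteins of several kinds. Nlk, the highest, which encodes a proline-directed kinase of Wnt and Notch signalling (chr11:78696951-78698150), had heights of 98.0, 97.4 and 93.9 in no dox libraries 1 to 3 and 99.4, 98.9 and 99.1 in +dox libraries 1 to 3. Chrnb1, the beta subunit of the muscle acetylcholine receptor (chr11:69795001-69796800), had 95.5, 96.8 and 97.5, then 98.2, 97.6 and 98.4. For both genes the value was above 93 in every library. Ptprs, a receptor tyrosine phosphatase, Tfb1m, a mitochondrial rRNA methyltransferase, Fam49b, a regulator of Rac signalling, Mmaa, of cobalamin metabolism, Ssbp2, a single-stranded DNA-binding protein, and Uba3, of the neddylation enzyme, were the other six, with mean heights between 95.2 and 97.6. The lowest single value among them was 87.1, for Uba3 in no dox 3. The maximum of Fam49b lay 257 bp upstream of its start in all 6 libraries and that of Uba3 79 bp upstream.

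Among members seen in the +dox lists alone, the highest was Ccdc107 (chr4:43492601-43493900), with heights of 82.3, 75.4 and 79.9 in +dox libraries 1 to 3. Cast, the calpain inhibitor calpastatin, had 78.7, 71.1 and 77.0. Xpot, a tRNA exporter, had 67.2, 72.7 and 83.1, and Dpf2, a subunit of the BAF chromatin remodeller, 78.7, 65.7 and 75.3. Vamp3, a vesicle SNARE protein, spread most, with 84.3, 42.4 and 84.0. The rule also named Arhgef1, whose maximum was 1170 to 1220 bp downstream of the start, Gpsm2 and Lgmn. Members of the no dox lists alone were low. Hhex, a homeobox factor, had heights of 6.80, 44.9 and 4.47 in no dox libraries 1 to 3, and Grhl2, a grainyhead factor, 13.6, 19.7 and 14.9.

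**Figure D5:**
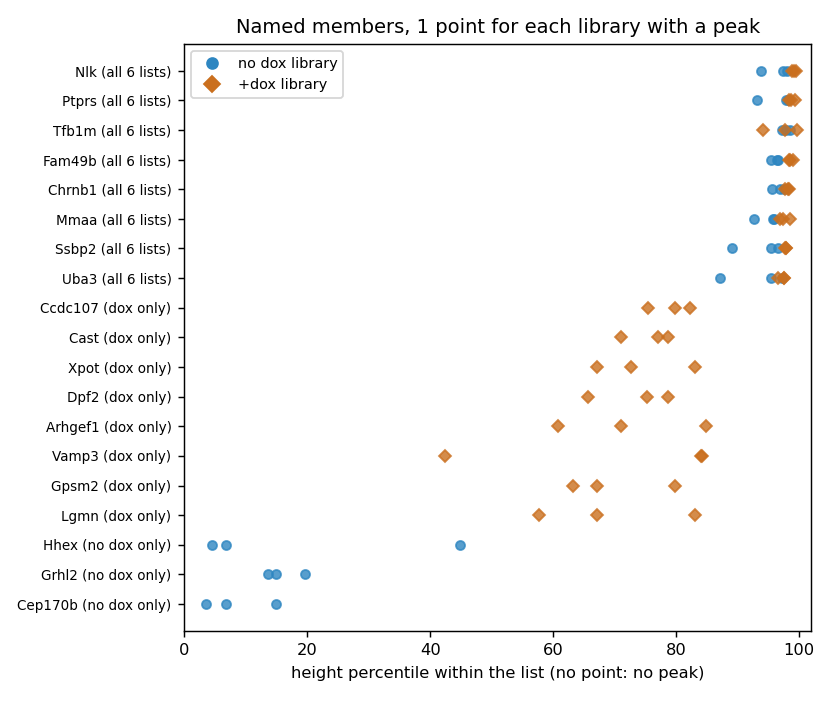
Height percentile (x axis) of the members named by rule (y axis), with 1 point for each library that has a peak. Genes called in all 6 lists lie above 87, genes of the +dox lists alone lie between 42.4 and 84.8, and genes of the no dox lists alone lie at 44.9 or below.

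Maximum signal was compared at the 4838 regions called in all 6 lists, of which 491 were members. With limma on log2 maximum CPM and Benjamini-Hochberg adjustment, 0 members passed an adjusted p under 0.05 (0.0% of all regions up and 0.0% down). An unadjusted limma p under 0.05 was found at 129 of 491 members, all of them higher with dox, and at 1158 of all 4838 regions. The median log2 difference was 0.91 over all regions and 1.03 over members. With replicate number as a block, 289 members were higher and 0 lower, where 52.0% of all regions were higher and 0.103% lower. After centring each library on its median, the block fit called 0 members, with 0.0% of all regions higher and 0.0207% lower. Without +dox 3 the fit covered 4871 regions, of which 565 were members. There 342 members were higher, where 39.0% of all regions were higher and 0.103% lower. The smallest p value among members was that of Slc38a9, an amino acid transporter of the lysosome. Its maximum was 3.26, 3.16 and 1.71 CPM in no dox libraries 1 to 3 and 11.9, 14.5 and 5.73 CPM in +dox libraries 1 to 3, so the groups did not overlap. Its log2 difference was 1.93 (SE 0.56, limma adjusted p = 0.208) and 1.01 after centring. Pde10a, a phosphodiesterase, differed by 2.40 (SE 0.73), at an adjusted p = 0.208 in limma. With the replicate block both passed, at limma adjusted p of 0.000185 and 1.29e-07, and neither was among the calls of the centred block fit. The lowest p values among members that were lower with dox were for Mlst8, Slc38a2 and Wrap73, at log2 differences of -0.25, -0.22 and -0.19, with limma adjusted p of at least 0.738.

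The gene families were compared by counts, without a set test. Lists were drawn by gene symbol or symbol pattern, so a list name need not describe each gene in it. Eif2ak4, Eif4ebp2 and Eif2ak3 counted among translation initiation factors, and Gtf2ird2 and Taf15 among general transcription factors. Of 85 cytosolic ribosomal protein genes, 28 (32.9%) had a member, where 13.3% of all protein-coding genes had one. A single promoter with CAGCTG was at 10 of them (11.8%), against 19.3% of all protein-coding genes. Translation initiation factors had members at 21 of 55 genes (38.2%) and general transcription factors at 15 of 40 (37.5%), and CAGCTG promoters at 10 and 2. Proteasome subunits had members at 10 of 40 (25.0%) and CAGCTG promoters at 5, and oxidative phosphorylation subunits had 18 of 85 (21.2%) and 16. In the other lists of general cell genes CAGCTG promoters were the more numerous, except replication-dependent histones, where the counts were equal. Zfp zinc finger genes had members at 67 of 394 (17.0%) and CAGCTG promoters at 84, aminoacyl-tRNA synthetases at 7 and 12 of 35, DNA replication genes at 6 and 13 of 32, E3 ligase and cullin genes at 14 and 22 of 73, and spliceosome genes at 10 and 14 of 50. RNA polymerase II and mediator subunits had 8 and 11 of 42, chaperones 14 and 16 of 78, and replication-dependent histones 5 and 5 of 67. Mitochondrial ribosomal proteins had members at 10 of 78 (12.8%) and CAGCTG promoters at 14, and 17 of these genes lay at bidirectional promoters. Among 19 myogenic regulators, 4 (21.1%) had a member and 11 (57.9%) a CAGCTG promoter. Among 50 sarcomere genes 3 (6.00%) had a member and 9 a CAGCTG promoter, and among 15 fusion genes 2 (13.3%) and 8 (53.3%). AP-1 and immediate early genes had 4 of 20 and 13 of 20. Of 53 cadherins and integrins, 6 (11.3%) had a member and 9 (17.0%) a CAGCTG promoter. Of 5 adhesion genes studied by the authors, 1 had a member and 2 a CAGCTG promoter. These lists are small, and the differences between them were not tested.

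Within families, values in single libraries varied. Rps21 and Rps19 are proteins of the small ribosomal subunit. Rps21 had heights of 82.2, 77.7 and 61.2 in no dox libraries 1 to 3 and 89.5, 74.1 and 93.9 in +dox libraries 1 to 3, with the 2 groups overlapping. Mcam, a cell adhesion molecule, had 61.5, 51.0 and 66.0, then 78.7, 72.7 and 87.9, in lists of unequal length. Six4, a homeobox factor of muscle development, was not called in no dox 3, had 6.80 and 10.4 in no dox libraries 1 and 2, and had 49.3, 46.9 and 64.6 in +dox libraries 1 to 3. Relative to the start, its maximum lay at 974 and 1299 bp in no dox libraries 1 and 2. In +dox libraries 1 to 3 it lay at -51, -51 and 199 bp. The Six4 heights of the groups thus come from different places in a merged region of 2450 bp. Myl9, a myosin light chain, overlapped between groups, with 43.0, 10.4 and 4.47, then 68.9, 19.0 and 44.8. Itgb1, an integrin beta subunit, also overlapped, with 36.6, 67.4 and 47.9, then 76.8, 46.9 and 83.1. The maximum CPM of Mcam was 6.52, 4.52 and 4.29 in no dox libraries 1 to 3 and 19.5, 12.2 and 6.48 in +dox libraries 1 to 3, so on the CPM scale the groups overlapped.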

How the data were processed

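Anti-Flag CUT&RUN was measured in the 6 tagged C2C12 libraries. Per the labels and methods, the authors ran the nf-core/cutandrun pipeline on mm10, with CPM normalization, SEACR peaks called in relaxed mode and a blacklist. The submitters' processing notes name SEACR and deepTools, and the control used for calling is not given in the sources used here. The deposited lists give total and maximum signal coverage per peak, in CPM, and no counts. Peaks absent from a list have no value.

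Peaks were merged and classed with GENCODE vM21 basic starts on GRCm38.p6, which holds the same chromosomes (0 peaks ran past an end). Paired starts were read as a minus-strand start at or upstream of a plus-strand start. Counting overlapping starts too gave 2813 members. Maximum signal was tested with limma 3.58.1 (trend) on log2 CPM with no pseudocount. Library values were tested with exact permutation tests, which cover the spread between 3 biological replicates of 1 clonal line. Same-numbered libraries deviated together (correlations 0.49, 0.27 and 0.63 over 4838 regions). The main dox comparisons were nevertheless unpaired, both in the permutation tests and in limma. Pairing by replicate number was an alternative setting. The sign-flip tests of classes and motifs flipped each of the 6 libraries on its own and did not use this pairing. Flipped by pair, no exact sign-flip p could fall below 0.25, so those calls rest on taking the libraries as independent. Methods were tested on simulated data. Python 3.11.15 with pandas 2.3.3 was used.

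Members, gene lists and motifs were chosen with earlier results of these data known. Named members were the 8 highest called in all 6 lists, the 8 highest of the +dox lists alone, up to 5 of the no dox lists alone, the 3 lowest limma p values in each direction, and 3 per gene list, of which some are printed and 1 is not reported here. Alternatives were each library left out, a replicate block, list length, 3 or more lists, 500 bp distance, CAGCTG near the centre, total signal, width and CpG content. Chosen after seeing the data were the values within replicates, the mean height and the restriction to features of at least 20 members.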

Additional observations from a re-analysis of the deposited data

How the results depend on the processing

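Leaving out 1 of 6 libraries puts the smallest possible p at 0.0625, so each within-library call was lost by construction, with values between -13.5 and -12.2 (height against CAGCTG promoters), -9.77 and -7.48 (bidirectional), -11.5 and -10.0 (share called), -6.11 and -5.60 (windows), and 6.14 and 8.14 (maximum near start). Dox-only members ranged from 228 to 461, with 1 list fewer to meet, and the share over all regions was not computed for these settings. Members with changed maximum signal ranged from 0 to 342, the highest without +dox 3, where 565 members were tested. Member share of peaks ranged from -1.36 to 5.20 and the height gap with dox from -0.61 to 2.62.

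Within replicates 1 and 2 the values were -13.0, -9.49, -11.2, -5.90 and 7.70 in the same order, and the height gap reversed to -0.83. Within replicate 3 they were -11.9, -8.20, -13.3, -5.74 and 7.42, and the share of peaks reversed to -1.49. Neither subset allows p under 0.05.

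Shortening lists gave 1808 members, 12 dox-only members, a share called difference of -15.1, and an other E-box difference of 1.96 that passed (exact permutation p = 0.03125). With a 500 bp promoter distance the height gap with dox reversed to -0.77. CAGCTG within 250 bp of the centre gave 4810 members and reversed maximum near start to -1.01. At widths of 500 to 1000 bp calls were lost for height (-4.37 and -1.80), share called (-3.51) and maximum near start (3.73), and the other E-box difference reversed to -1.92. Any other CANNTG reversed it to -1.29. The causes were not tested. The replicate block moved members with changed maximum signal from 0 to 289 and changed no other call. Of 183 alternative values, 119 kept direction and call.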
